A study of Mus musculus with 24 samples.

Results

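The genes of 8 nuclear receptors, Vdr, Rxra, Rara, Rarg, Nr3c1, Rora, Ppard and Pparg, were examined for open chromatin in mouse epidermal stem cells (EpdSCs) and in cultured keratinocytes in which the transcription factor SOX9 was switched on. A locus was the body of the protein-coding gene (GENCODE, build GRCm38) with 50 kb on each side. Every region with a peak in any of 12 ATAC-seq peak lists that touched such a window was taken, which gave 218 of the 134385 regions of the series. The Rora locus held 53 of them, Vdr 33, Rxra 32, Ppard 25, Rara 20, Rarg 20, Nr3c1 19 and Pparg 16. ATAC-seq uses the transposase Tn5 to insert sequencing adapters into accessible DNA, so a peak marks chromatin that was open in the cells.

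The 24 samples formed 12 groups of 2 biological replicates. The skin groups were interfollicular EpdSCs sorted from male CD1 mice that carried K14rtTA and TRE-myc-Sox9, in which doxycycline (DOX) turns on Sox9 wherever the Krt14 promoter drives rtTA. They were taken before DOX (D0, postnatal day 21) and 1, 2 and 6 weeks into it (W1 at day 28, W2 at day 35, W6 at day 63). The W12 cells came from skin that had been grafted onto immunocompromised Nude hosts, so the graft and the week cannot be told apart. Cells of several males were pooled in a replicate, and the sort removed blood, endothelial, melanocytic and fibroblast cells by surface markers. The culture groups were keratinocytes from newborn back skin, without DOX (noDOX) or with DOX at 1 µg per ml and a construct: WT-SOX9, SOX9 without the DNA-binding HMG domain (dHMG-SOX9), SOX9 without the transactivation domain (dTA-SOX9), AFOS (a FOS that blocks the AP1 transcription factors), both SOX9 and AFOS, and SOX9 together with ARID1a (part of the chromatin remodeller SWI/SNF). All culture groups carried K14rtTA, and the labels give the DOX time, 3 days, for replicate 1 of WT-SOX9, dHMG-SOX9 and dTA-SOX9 only. The authors put WT-SOX9 and its mutants into K14rtTA cells by lentivirus. For AFOS and ARID1a they used K14rtTA cells or cells with K14rtTA and the TRE-myc-Sox9 transgene. SOX9 in the arms with AFOS or ARID1a may thus have another source, which cannot be told apart from the added factor. The only list without DOX was made from the WT-SOX9 cells, so all 6 arms were compared with the same list, and W1 to W12 with the same D0 list.

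The authors merged both replicates before calling peaks, so each group was 1 list. No replicate error exists for any value below, no test between conditions was possible, and read depth is unknown. The score is the authors' normalised peak score, and peaks under a score of 3 had been removed, so "no peak" means below that score. In bulk cells, fewer cells with an open region and less opening in each cell cannot be told apart. The lists held 49458 to 75956 peaks. All 5 basal epidermal marker promoters had a peak in every list, whereas those of Ptprc, Cd3e, Cd207, Kit and Tyr had none in any. Other cell type markers did have peaks. Dct of melanocytes had one in all 5 skin lists (20.1 to 38.0) and in SOX9+AFOS, and the immune gene Cd74 in 8 lists. The fibroblast genes Pdgfra and Col1a1 had peaks in 12 and 11 lists, and the endothelial genes Pecam1 and Kdr in 11 and 6. Endothelial Cdh5 had peaks with dHMG-SOX9 (3.23) and dTA-SOX9 (9.21), and melanocytic Mlana with SOX9+AFOS (4.49). Their part in the results was not tested. Peaks confined to exons can come from an intron-free transgene, and for Sox9 such peaks were found in the list labelled D0 (highest score 13.5) and in those labelled W2, W6 and W12 (8.84 to 15.1), but not in that labelled W1, nor in those labelled WT-SOX9, dHMG-SOX9 and dTA-SOX9, while the list labelled noDOX had 1 (3.71), which goes against these labels. Those labelled SOX9+AFOS and SOX9+ARID1a had 2 each. SOX sequences lay in 16.6% of the regions opened by WT-SOX9 over the series and in 3.61% of those closed. Peaks confined to exons of Arid1a numbered 12 in the list labelled SOX9+ARID1a and also 8 and 7 in those labelled AFOS and SOX9+AFOS, against at most 1 in the others.

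Nuclear receptors are transcription factors that bind DNA and, in most cases, are switched by small lipophilic ligands such as vitamin D, retinoic acid, glucocorticoids or fatty acids. RXR is the shared partner with which the vitamin D receptor, the retinoic acid receptors and the PPARs bind DNA as pairs, while the glucocorticoid receptor acts mainly as a homodimer and the ROR proteins as monomers. In skin these receptors are known for roles in keratinocyte differentiation, barrier lipids, inflammation and the hair cycle.

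Of the 124 regions open at D0, 96 also had a peak at W2 (77.4%, against 80.4% over the series). Of the 218 regions, 172 had a peak in at least 1 skin list, and 80 of these (46.5%) had one in all 5, against 38.2% over the series. A region was called lost when it had a peak at D0 and none at W2, W6 and W12. Of 124 D0 regions, 12 were lost (9.68%, 95% Wilson interval 5.62 to 16.2%, counting error only), close to the 9.9% of all D0 regions. A region was called gained when it had no peak at D0 and W1 and a peak at W2, W6 and W12. This held for 8 of 172 (4.65%), against 8.02% over the series. The loci differed among themselves, since 9 of the 12 lost regions lay at Rora and 4 of the 8 gained regions at Ppard. Without Rora, 3 of 86 D0 regions (3.49%) were lost.

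**Figure D1:**
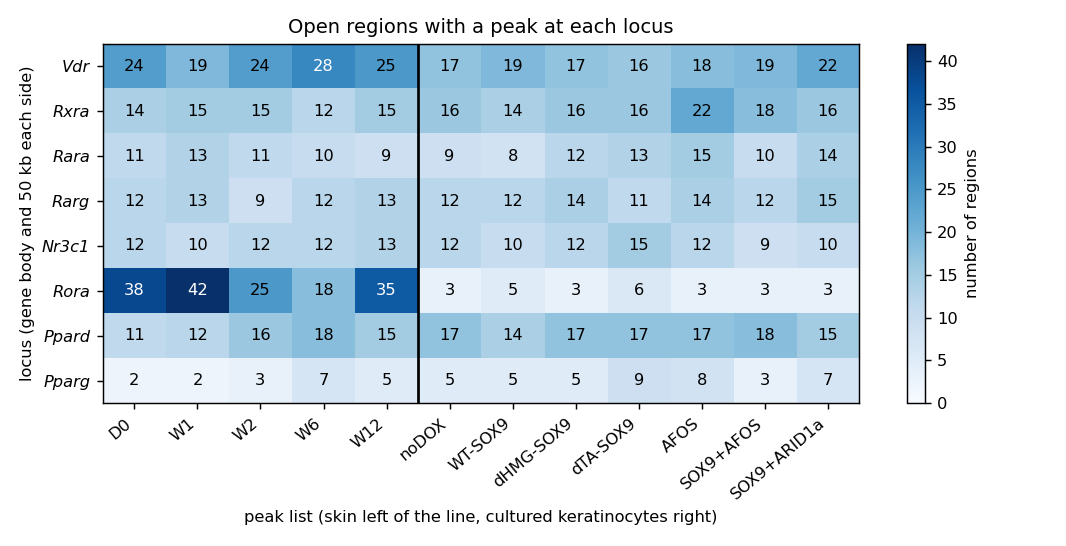
Number of open regions with a peak (cell number and shade) at each of the 8 loci (rows) in each of the 12 peak lists (columns), skin left of the line and culture right of it. Rora fell from 38 regions at D0 to 18 at W6 and had 3 to 6 in the culture lists, while Vdr had 19 to 28 in the skin lists.

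Rora, the gene of the orphan receptor RORα, which binds single half-sites, spans 734.5 kb of chr9:68653786-69388246 on the plus strand, and 50 of the 53 regions in its window were centred in introns. The skin lists, in order of time, had 38, 42, 25, 18 and 35 regions with a peak there. The series as a whole went the other way, from 54406 regions at D0 to 71511 at W6. The summed score of the locus, in the same order, was 405, 542, 249, 164 and 303. The locus therefore thinned out at W2 and W6 and was fuller again in the W12 list. Marker promoters of more than 1 cell type had scores with a like course. Of the 5 basal epidermal markers, 4 were lower at W6 than at D0, with 20.3, 22.9, 11.6, 10.2 and 16.5 from D0 to W12 at Trp63 and 21.7, 24.1, 20.5, 12.9 and 20.7 at Krt5. Among 3 hair follicle stem cell markers, 2 did the same. That of Krt15 was 16.1, 25.7, 9.99, 5.49 and 11.5 from D0 to W12, and that of Lhx2 21.1, 24.97, 13.3, 12.9 and 15.3. The third, Cd34, had a peak at W6 (5.90) and W12 (3.03) alone. Of these 3 markers, 2 or 3 had a peak in each skin list and 0 to 2 in each culture list, whereas the 5 basal markers had a peak in all lists. Their part in the result was not tested.

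Of the 38 D0 regions of Rora, 19 (50%) had no peak at W2, compared with 19.6% of all D0 regions and with 9 of 86 (10.5%) at the other 7 loci. The 19 fell into 9 that were lost, 9 that had no peak at W2 and W6 and were back at W12 (23.7%, against 3.74% over the series and 1 of 86 at the other loci), and 1 other. Of the 9 that came back, 7 had a lower score at W12 than at D0. D0 score moved with this result. Of the 19 absent at W2, 11 had a D0 score under 5 (57.9%, against 52.5% over the series), as did 7 of the 9 lost (77.8%, against 55.6%). Among regions with a D0 score of at least 10, 5 of 13 at Rora had no peak at W2 (38.5%), compared with 0 of 48 at the other 7 loci and 4.66% over the series. Starting from the list labelled W1 in place of D0, 23 of 42 Rora regions had no peak at W2 (54.8%, against 24.7% over the series), and 4 of 17 with a W1 score of at least 10 (23.5%, against 6.85%). Without the W12 list, 18 of 38 counted as lost, but that rule is looser for every region. Its share over the series was not computed.

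**Figure D2:**
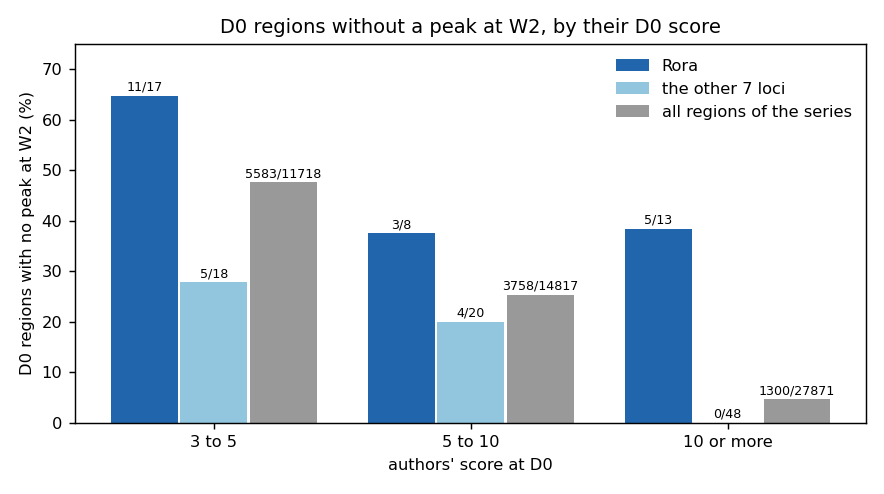
Share of D0 regions with no peak at W2 (y axis, percent) by their D0 score (x axis), for Rora, the other 7 loci and all regions of the series; the counts stand above the bars. In the group with scores of 10 or more, 5 of 13 Rora regions had no peak, against 0 of 48 at the other 7 loci.

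The clearest single region lay 438.8 kb into the gene, in an intron, at chr9:69091976-69093237. Its score was 20.5 at D0 and 31.6 at W1, it had no peak at W2 and W6, and it was 3.20 at W12. A second intronic region, chr9:69264937-69265750, had the highest D0 score of the locus, 42.4, followed by 35.8, 25.2, 5.33 and 23.0 in the later lists in order of time. It thus stayed in every skin list while its score was lowest at W6, with a log2 ratio to D0 of -2.99. Neither had a peak in any culture list. The central 200 bases of both are shown (plus strand, GRCm38), because they had high D0 scores that were far lower or below the limit at W6, with the RUNX match TGTGGT in capitals. No other sequence searched for here lay in either window.
Rora intron, chr9:69092507-69092706: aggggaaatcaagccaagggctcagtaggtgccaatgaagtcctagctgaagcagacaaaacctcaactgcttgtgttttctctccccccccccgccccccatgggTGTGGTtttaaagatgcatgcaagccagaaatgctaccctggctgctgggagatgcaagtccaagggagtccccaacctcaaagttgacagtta
Rora intron, chr9:69265244-69265443: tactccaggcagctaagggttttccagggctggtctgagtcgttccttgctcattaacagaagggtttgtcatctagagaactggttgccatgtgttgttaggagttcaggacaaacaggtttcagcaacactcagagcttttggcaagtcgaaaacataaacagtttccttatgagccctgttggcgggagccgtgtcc

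Other strong regions of Rora followed the same course. At chr9:69227139-69228332 the score went from 32.6 (D0) and 34.6 (W1) to 5.21 (W2), 5.33 (W6) and 8.29 (W12), the largest fall from D0 to W2 of any region with a peak in both lists at the 8 loci (6.25-fold). At chr9:69054585-69055841 it was 33.3, 33.0, 26.6, 5.06 and 15.4 in the same order, so that the fall came by W6. At chr9:69084495-69085692 it fell to 6.89 at W2 from 23.8 at D0 and stood at 21.2 in the W12 list. The highest-scoring lost region was chr9:69053657-69054059, with 10.5 at D0 and 8.75 at W1. The fall was not general within the gene. At chr9:68944045-68944542 the score rose from 9.57 at D0 to 22.7 at W6 and 24.5 at W12, and at chr9:69213506-69214664 it was 4.02, 6.92, 11.3, 9.66 and 9.71. Of the 3 regions at annotated Rora starts, 2 had a peak in every skin list, the one at the 5′ end (chr9:68653265-68654130, 4.83 to 8.47) and an internal one 636.4 kb downstream (chr9:69289294-69291075, 15.3 to 43.4).

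**Figure D3:**
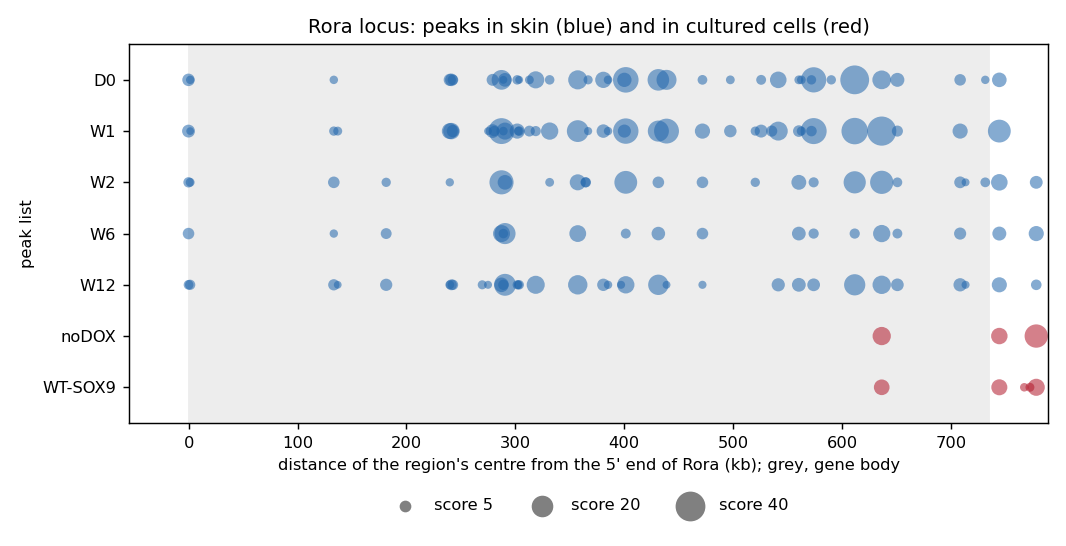
Peaks at the Rora locus by distance of the region from the gene's 5′ end (x axis, kb; grey, gene body) in the skin lists (blue) and in the noDOX and WT-SOX9 culture lists (red), with symbol area proportional to the authors' score. Over the whole window 38 regions had a peak at D0, 25 at W2 and 18 at W6, against 3 in the noDOX and 5 in the WT-SOX9 list.

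Of the loci, Rora had the largest share of skin regions without a culture peak. Of its 51 skin regions, 45 (88.2%) had no peak in any of the 7 culture lists, compared with 39.4% over the series and 25 of 121 (20.7%) at the other 7 loci. Promoters are open in most cells, and outside promoters the share was 44 of 47 at Rora, against 43.7% over the series. Only 4 of the 49 skin regions inside the gene body had a culture peak. At the internal start, which had a peak in 5 of the culture lists, the score was 17.1 without DOX, 12.5 with WT-SOX9, 10.7 with dTA-SOX9, 6.04 with AFOS and 9.35 with SOX9+AFOS, and no peak in the dHMG-SOX9 and SOX9+ARID1a lists. The other 3 were the 5′ start, with peaks with dHMG-SOX9 (3.53) and dTA-SOX9 (3.52), and 2 intronic regions with a peak only in the dTA-SOX9 list, chr9:68972192-68972769 (17.2) and chr9:69084495-69085692 (17.5). In the neighbouring gene Ice2, chr9:69431660-69432504 in a coding exon had peaks in all 7 culture lists (noDOX 27.8). In skin it had no peak at D0 and W1 and scores of 8.45, 11.7 and 5.74 from W2 to W12. The other region gained in the window, chr9:68834803-68835472, lay in a Rora intron, scored 4.42, 6.07 and 7.66 in the same lists and had no culture peak. The region opened by WT-SOX9 with the highest score, chr9:69426148-69426488, also lay in Ice2 and had a score of 4.10.

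Vdr encodes the vitamin D receptor, known in skin for its part in the hair cycle and in differentiation, and spans chr15:97854425-97910630 on the minus strand. Its window also takes in Hdac7, a histone deacetylase gene. No Vdr region was lost in skin (0 of 24 at D0, with a 95% Wilson upper limit of 13.8% that takes in the 9.9% over the series), and none was closed by WT-SOX9 in culture (0 of 17 with a noDOX peak, upper limit 18.4%). Over the series, 27.9% of noDOX regions had no peak with WT-SOX9, which is what closed means here. The main promoter region, chr15:97907135-97908853, was in all 12 lists, with scores of 15.7 to 29.0 in skin and 5.78 to 26.1 in culture.

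Inside Vdr, 4 regions scored higher in all 3 culture lists with full-length SOX9 than without DOX. An intronic region 52.0 kb from the 5′ end, chr15:97858202-97859147, had no peak at D0 and W1 and scores of 14.3 at W2, 12.1 at W6 and 10.9 at W12. In culture it scored 7.84 without DOX, 43.7 with WT-SOX9, 11.9 with dHMG-SOX9, 13.0 with AFOS, 22.6 with SOX9+AFOS and 51.1 with SOX9+ARID1a, and had no peak with dTA-SOX9. WT-SOX9 was 5.58-fold above noDOX, the largest rise of any region with a peak in both of these lists at the 8 loci. At chr15:97904159-97905009, 6.0 kb into the gene, the culture scores were 14.1 (noDOX), 39.8 (WT-SOX9), 16.0 (dHMG-SOX9), 12.1 (dTA-SOX9), 7.63 (AFOS), 39.6 (SOX9+AFOS) and 52.8 (SOX9+ARID1a). The 3 lists with full-length SOX9 were thus all above the other 4, whereas in skin the region had no peak at W1 and scored 9.23 to 12.7 in the other lists. The third, chr15:97897210-97897972, lies within 1 kb of an annotated Vdr start and had no peak without DOX. It had peaks with WT-SOX9 (12.1), SOX9+AFOS (12.5) and SOX9+ARID1a (8.55), none in the other 3 arms, and 1 in skin, at W6 (4.86). The fourth, the intronic chr15:97878641-97879101, had scores of 3.92 with WT-SOX9, 7.80 with SOX9+AFOS and 6.99 with SOX9+ARID1a and no peak in any other list.

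The central 200 bases of the first and the third are given as the region with the largest rise and the opened region with the highest WT-SOX9 score at this gene (plus strand, GRCm38). Capitals mark, in the third, a SOX sequence (ACAATGG, here on the opposite strand) and a RUNX sequence (TGTGGT, also on the opposite strand). The first window held none of the sequences searched for.
Vdr intron, chr15:97858575-97858774: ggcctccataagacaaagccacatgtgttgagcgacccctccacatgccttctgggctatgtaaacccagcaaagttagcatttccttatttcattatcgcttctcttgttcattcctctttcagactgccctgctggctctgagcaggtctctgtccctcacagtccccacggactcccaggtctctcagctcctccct
Vdr intron near an annotated start, chr15:97897492-97897691: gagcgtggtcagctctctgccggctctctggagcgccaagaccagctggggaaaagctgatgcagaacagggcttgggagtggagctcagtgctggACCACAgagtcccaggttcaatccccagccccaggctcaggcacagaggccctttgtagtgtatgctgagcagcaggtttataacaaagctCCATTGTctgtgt

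At 2 neighbouring intronic regions of Vdr that had peaks in all 12 lists, skin scores peaked at W1 and W2. chr15:97883113-97883807 scored 33.1, 35.6, 54.6, 36.8 and 30.5 from D0 to W12, but 4.05 to 12.1 in culture. chr15:97882257-97882969 next to it scored 25.2, 39.0, 35.8, 28.1 and 23.2 in skin. In culture it was 23.7 without DOX, 46.3 with SOX9+ARID1a, 7.39 with AFOS and 3.63 with dTA-SOX9. Over the 22 Vdr regions with peaks at D0 and W2 the median log2 ratio of the scores was 0.33, against -0.02 over the series.

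Rxra encodes the shared partner RXRα and spans chr2:27676440-27762957 on the plus strand, with no other protein-coding gene in its window. An intronic region of Rxra had the highest culture score of the 8 loci. At chr2:27744422-27746348 the score was 118 without DOX, 83.4 with WT-SOX9, 128 with dHMG-SOX9, 74.1 with dTA-SOX9, 107 with AFOS, 137 with SOX9+AFOS and 91.1 with SOX9+ARID1a, and only 19.3 to 29.8 in skin. Over 10 shared regions the median log2 ratio of noDOX to D0 was 1.09 at Rxra, compared with 0.12 over the series. The promoter, chr2:27676100-27677453, was in all 12 lists with 5.23 to 8.37 in skin. In culture it was 11.2 without DOX and 34.1 with SOX9+AFOS, and between 5.58 and 11.6 in the other arms.

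With WT-SOX9 the Rxra regions shifted down. The median log2 ratio to noDOX was -0.73 over 14 shared regions, and 6 of the 14 fell at least 2-fold (42.9%), compared with 19.6% over the series. Of the 14, 13 lay outside promoters, where the median was -0.91, against -0.42 over the series. chr2:27630753-27632397, upstream of the gene, fell from 31.9 to 7.28, and chr2:27714212-27714672, in an intron, from 16.7 to 4.54. chr2:27715038-27715806 scored 35.8 without DOX, 10.8 with WT-SOX9 and 10.2 with SOX9+AFOS. With dHMG-SOX9 it scored 41.1, with dTA-SOX9 40.8, with AFOS 53.9 and with SOX9+ARID1a 36.8. In skin the same region went up, from 5.01 at D0 and no peak at W1 to 7.58 (W2), 22.0 (W6) and 17.1 (W12). The region closed by WT-SOX9 with the highest noDOX score, chr2:27726802-27727362, scored 15.3 without DOX, 10.9 with dHMG-SOX9, 6.67 with dTA-SOX9, 12.4 with AFOS and 7.56 with SOX9+ARID1a. It had no peak with WT-SOX9 or SOX9+AFOS, nor in any skin list. The only region of the window lost in skin, chr2:27644865-27645196, had a D0 score of 3.17, just above the limit. The central 200 bases of the closed region are shown as the strongest such site of the locus, with an AP1 sequence (TGANTCA) in capitals.
Rxra intron, chr2:27726983-27727182: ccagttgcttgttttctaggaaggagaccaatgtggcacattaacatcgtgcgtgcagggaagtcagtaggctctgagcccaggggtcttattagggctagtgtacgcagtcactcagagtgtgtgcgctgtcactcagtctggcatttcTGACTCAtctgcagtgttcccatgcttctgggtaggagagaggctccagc

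Rara and Rarg encode the retinoic acid receptors RARα and RARγ, the latter being the main one of keratinocytes. Rara spans chr11:98927818-98974942 on the plus strand, in a window shared with Cdc6, Gjd3, Top2a and Wipf2. In skin, none of the 10 Rara regions with peaks at D0 and W2 changed 2-fold, while over the series 11.4% rose and 8.4% fell that much. Between D0 and W1, 6 of 11 shared Rara regions rose at least 2-fold (54.5%, against 7.59%). The promoter region with the highest score, chr11:98959446-98960878, scored 11.1, 11.1, 14.3, 10.5 and 18.2 from D0 to W12. In culture it was 17.0 without DOX, 26.1 with WT-SOX9, 20.1 with dHMG-SOX9 and 21.4 with dTA-SOX9, and higher with AFOS (46.0), SOX9+AFOS (40.6) and SOX9+ARID1a (49.2). The peak names of these 3 lists say that fragments were the input to peak calling, which those of the other lists do not. This applies to every comparison of these 3 lists with noDOX in this report, and its part in the results was not tested.

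In the body of Rara outside its promoters, chr11:98932938-98933687 scored highest, at 11.6 to 27.1 in skin and 9.46 to 16.5 in culture. An intronic region opened by WT-SOX9, chr11:98972209-98972536, reached only 3.16. An intergenic region, chr11:98904902-98905476, 22.6 kb upstream of Rara, was lost in skin and closed by WT-SOX9. It scored 7.07 at D0 and 8.15 at W1 and had no peak from W2 on. In culture it scored 11.2 without DOX, 15.1 with dHMG-SOX9, 13.1 with dTA-SOX9, 28.5 with AFOS, 11.3 with SOX9+AFOS and 19.6 with SOX9+ARID1a. The WT-SOX9 list was the only culture list without a peak there. Its central 200 bases held 2 nuclear receptor half-sites on the opposite strand (AGGTCA and GGGTCA), in capitals, and are shown because the region fell in both systems.
Intergenic region near Rara, chr11:98905090-98905289: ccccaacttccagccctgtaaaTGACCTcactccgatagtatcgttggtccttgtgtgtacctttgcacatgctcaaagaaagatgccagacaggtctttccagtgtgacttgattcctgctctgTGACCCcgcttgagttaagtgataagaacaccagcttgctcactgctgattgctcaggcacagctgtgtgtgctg

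Rarg spans chr15:102234938-102257517 on the minus strand, and its window is shared with Csad, Espl1, Gm9918, Itgb7, Mfsd5 and Zfp740. Its internal promoter region, chr15:102245912-102248035, rose in skin, from 5.35 at D0 to between 9.71 (W12) and 13.2 (W2) in the later lists. In culture it was 16.5 without DOX and higher in every arm, from 19.4 with dTA-SOX9 to 38.0 with SOX9+AFOS. An intronic region, chr15:102255750-102256233, scored 3.22 at D0, 9.85 (W1), 9.19 (W2), 5.15 (W6) and 4.199 (W12), so that it was highest at W1 and W2. The region at the 3′ end of the gene, chr15:102235268-102236023, scored 25.3 without DOX, 13.3 with WT-SOX9, 10.9 with dTA-SOX9, 72.7 with SOX9+AFOS and 60.5 with SOX9+ARID1a. The last 2 were thus far above noDOX, with log2 ratios of 1.52 and 1.26, whereas WT-SOX9 was below it. Both are lists whose peak names give fragments as input, and the part of this was not tested. Upstream of the gene, chr15:102282339-102283112 fell in skin from 10.8 at D0 to 4.09 at W2 and had no peak with WT-SOX9 or dTA-SOX9. It scored 5.62 without DOX, 7.69 with AFOS, 18.3 with dHMG-SOX9, 34.6 with SOX9+ARID1a and 60.9 with SOX9+AFOS. The strongest region opened by WT-SOX9 in any of the 8 windows was in an intron of Zfp740, chr15:102204962-102205480, at 53.3 with WT-SOX9, 30.8 with SOX9+AFOS and 22.5 with SOX9+ARID1a. This region lies within 1 kb of annotated starts of Csad and Zfp740, and 52.3 kb from the 5′ end of Rarg. There was no peak at this region in the other 4 culture lists or in skin.

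Ppard encodes PPARδ, a fatty acid sensor with a role in keratinocyte differentiation, and spans chr17:28232700-28301474 on the plus strand. All 11 of its D0 regions had peaks at W2 (19.6% of D0 regions over the series had none), and 4 of its 20 skin regions were gained (20%, against 8.02% over the series). The gained count was 2 of 16 with scores of at least 5 and 0 of 16 with a common q minimum. That minimum removed no D0 peak and trimmed the later skin lists, so fewer gains were favoured by construction. The window is shared with Def6, Fance, Rpl10a, Tead3 and Zfp523. The gained region with the highest W2 score, chr17:28251575-28252228, lies 19.2 kb into the gene, in an intron. It had no peak at D0 and W1 and scored 6.01 at W2, 17.0 at W6 and 20.2 at W12. In culture it scored 8.45 without DOX, 28.8 with WT-SOX9, 4.82 with dHMG-SOX9, 3.22 with dTA-SOX9 and 3.46 with AFOS. With SOX9+ARID1a it scored 33.1, and the log2 ratio of SOX9+AFOS to noDOX was 0.50. The 3 lists with full-length SOX9 were above noDOX and the other 3 arms below it.

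The promoter region with the highest score, chr17:28232415-28233323, scored 16.9 at W1 and 3.55 to 5.42 in the other skin lists but W12, where it had no peak, and 6.49 to 13.8 in culture. The strongest region of the gene body, chr17:28259759-28260795, scored 52.7 without DOX, 39.4 with WT-SOX9 and 21.9 with SOX9+AFOS, and between 50.5 and 69.3 in the other arms, while in skin it had peaks only at W6 (7.04) and W12 (21.4).

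Other introns of Ppard moved the other way in culture. chr17:28269397-28270641, 37.3 kb into the gene, scored 29.4 without DOX, 6.45 with WT-SOX9 and 7.64 with SOX9+AFOS. It scored 66.5 with dHMG-SOX9, 54.8 with dTA-SOX9, 66.7 with AFOS and 32.2 with SOX9+ARID1a. The fall with WT-SOX9 (4.55-fold) was the largest of any region with peaks in both lists at the 8 loci, and dHMG-SOX9 was 10.3-fold above WT-SOX9. At chr17:28256555-28257400 and chr17:28236142-28237241 the WT-SOX9 and SOX9+AFOS lists were also the lowest of the 7. The first of these scored 18.7 without DOX, 5.35 with WT-SOX9, 6.82 with SOX9+AFOS and 37.2 with dTA-SOX9, and the second 31.6, 9.25, 7.28 and 40.3. In skin, chr17:28269397-28270641 was absent at D0 and W1 and present from W2 on (5.89, 7.21 and 10.9). The central 200 bases of the region that rose and of the one that fell are given side by side (plus strand, GRCm38). In the first, capitals mark an AP1 sequence (TGANTCA) and a RUNX sequence (TGTGGT) that overlap by 1 base. The second held none of the sequences searched for.
Ppard intron, higher with SOX9, chr17:28251802-28252001: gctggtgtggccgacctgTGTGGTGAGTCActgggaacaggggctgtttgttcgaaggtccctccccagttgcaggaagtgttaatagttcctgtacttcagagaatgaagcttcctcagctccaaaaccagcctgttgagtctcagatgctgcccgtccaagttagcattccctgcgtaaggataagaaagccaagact
Ppard intron, lower with WT-SOX9, chr17:28269920-28270119: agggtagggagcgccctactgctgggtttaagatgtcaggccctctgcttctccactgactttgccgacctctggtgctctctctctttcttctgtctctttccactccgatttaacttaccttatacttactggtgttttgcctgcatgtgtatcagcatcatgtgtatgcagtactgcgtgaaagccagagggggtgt

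**Figure D4:**
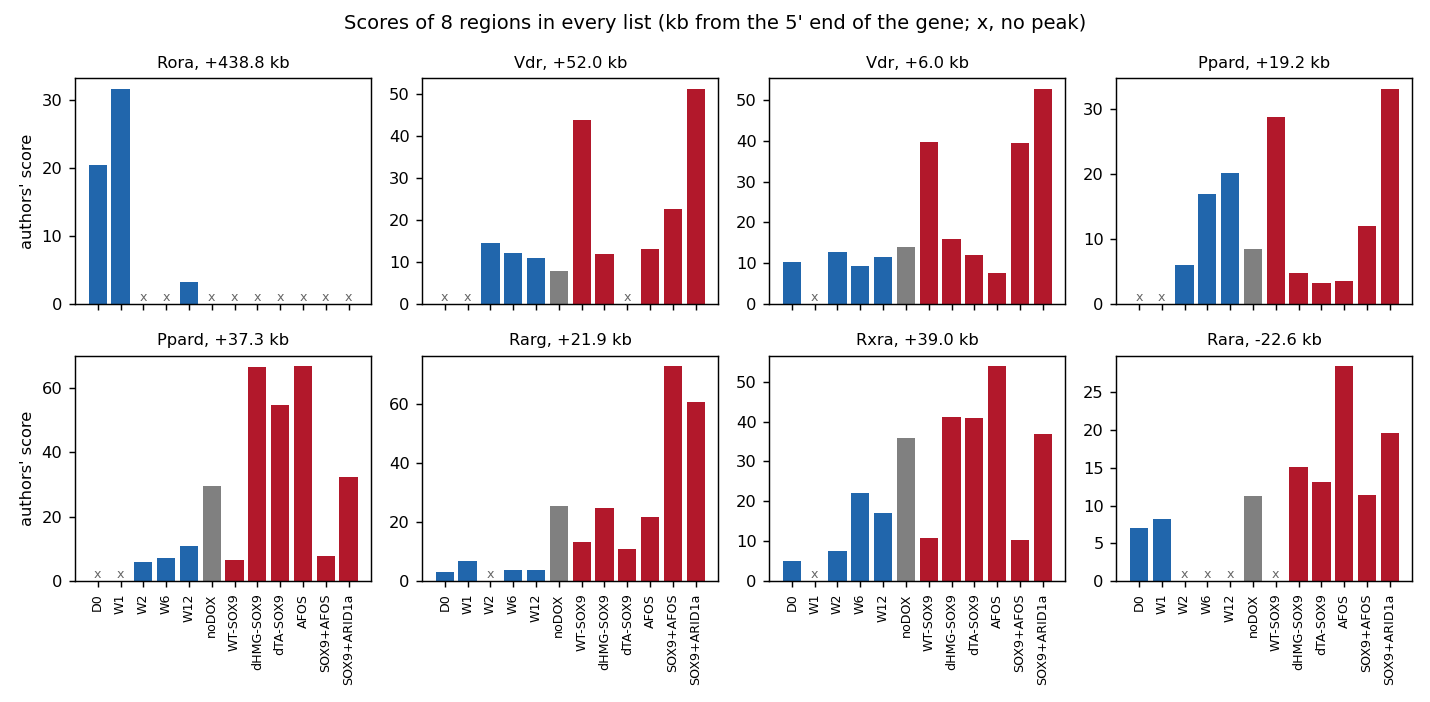
Authors' score (y axis, from 0, own scale in each panel) of 8 regions in the 5 skin lists (blue), noDOX (grey) and the 6 DOX arms (red), titled by gene and distance from its 5′ end; x marks a list with no peak. Both Vdr regions shown and the Ppard region at 19.2 kb were highest in the WT-SOX9 and SOX9+ARID1a lists, and the Ppard region at 37.3 kb was low in the WT-SOX9 and SOX9+AFOS lists.

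Pparg encodes PPARγ, the receptor known for driving fat and sebaceous cells, and spans chr6:115360951-115490399 on the plus strand. It had the fewest regions of the 8 loci. Its own 5′ promoter had a peak only in the dTA-SOX9 list, with a score of 3.37, and the skin lists, in order of time, had 2, 2, 3, 7 and 5 regions in the window. In the gene body the highest score was that of chr6:115397382-115397947, with 7.25 at W6 and peaks in culture only with dHMG-SOX9 and dTA-SOX9. The region opened by WT-SOX9 with the highest score was chr6:115340242-115340628, at 4.53. Upstream, chr6:115313086-115313785 rose in skin from 3.96 at D0 to 21.5 at W6 and 13.5 at W12. It scored 14.1 without DOX and had no peak with WT-SOX9, AFOS or SOX9+AFOS. chr6:115315614-115316316 beside it appeared at W6 (10.4) and W12 (8.86). In culture it scored 23.0 without DOX, 7.81 with WT-SOX9 and 7.50 with SOX9+AFOS, against 25.3 to 30.3 in the other 4 arms.

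Nr3c1 encodes the glucocorticoid receptor and spans chr18:39410545-39519421 on the minus strand. Its window also takes in Arhgap26, and an Nr3c1 start was the nearest for 12 of its 19 regions. Of its 13 skin regions 9 had a peak in all 5 lists (69.2%, against 38.2% over the series), and none of its 12 D0 regions was lost (9.9% over the series), which 12 regions cannot tell from the series share. Its promoter region, chr18:39488836-39491942, was in all 12 lists, with 22.0 to 30.4 in skin. In culture it scored 45.5 without DOX, 67.4 with WT-SOX9 and 23.8 with SOX9+ARID1a, the highest and lowest of the arms. An intronic region, chr18:39483508-39484098, rose in skin from 9.64 at D0 and no peak at W1 to 28.2 at W2, 24.9 at W6 and 24.5 at W12. Its 2.93-fold rise from D0 to W2 was the largest of any region with a peak in both lists at the 8 loci. In culture it scored 22.1 without DOX, 36.6 with WT-SOX9 and 24.5 with AFOS, and only 3.68 with SOX9+AFOS. The gained region, chr18:39560183-39561174, scored 4.46, 13.7 and 9.91 from W2 on and had no culture peak. The strongest region closed by WT-SOX9, chr18:39378282-39378831, scored 8.75 without DOX and 9.33 to 29.5 with AFOS, dHMG-SOX9 and dTA-SOX9, and had no peak in the 3 lists with full-length SOX9. Beyond the 3′ end, chr18:39380753-39381724 was one of the strongest culture regions, at 99.0 without DOX, 40.5 with WT-SOX9, 117 with dHMG-SOX9 and 124 with SOX9+ARID1a. WT-SOX9 was the lowest of the 7 culture lists there.

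Over the 8 loci the scores of shared regions did not shift as a whole between D0 and W2. The median log2 ratio was 0.05 over 96 regions, against -0.02 over the series. At least 2-fold rises were seen at 6 of 96 (6.25%, against 11.4%) and falls at 9 (9.38%, against 8.4%). The list labelled W1 differed more. Of 110 regions shared with D0, 22 rose at least 2-fold (20%, against 7.59% over the series) and 2 fell (1.82%, against 5.05%), with a median log2 ratio of 0.46, compared with 0.07. Promoters and other regions both had higher medians at these loci, 0.72 over 27 promoter regions (0.26 over the series) and 0.39 over 83 others (0.00 over the series). It was also the skin list without a Sox9 peak confined to exons, and the part of this in the result was not tested.

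In culture a smaller share of regions closed at the 8 loci than over the series, by an amount that depended on what counted as a peak. Of 91 regions with a noDOX peak, WT-SOX9 closed 12 (13.2%, against 27.9%), dHMG-SOX9 7 (7.69%, against 18.4%), dTA-SOX9 9 (9.89%, against 19.2%), AFOS 4 (4.4%, against 17.3%), SOX9+AFOS 14 (15.4%, against 34.8%) and SOX9+ARID1a 10 (11%, against 20.5%). When a peak had to cover at least 50% of a region, WT-SOX9 closed 20 of 78 (25.6%, against 33.5%), dHMG-SOX9 12 (15.4%, against 32.3%), dTA-SOX9 7 (8.97%, against 20.7%), AFOS 10 (12.8%, against 25.1%), SOX9+AFOS 24 (30.8%, against 40.1%) and SOX9+ARID1a 28 (35.9%, against 39.7%). The noDOX scores of these loci were higher than those of the series (median 15.2 against 10.8), and score moved with closing. WT-SOX9 closed 6 of 9 noDOX regions with a score of 3 to 5 at these loci (66.7%, against 65.6% over the series), 3 of 17 with a score of 5 to 10 (17.6%, against 40.6%) and 3 of 65 with a score of at least 10 (4.62%, against 6.85%). Of 57 culture regions with no noDOX peak, WT-SOX9 opened 8 (14%, against 31.4%), dHMG-SOX9 12 (21.1%, against 17.7%), dTA-SOX9 21 (36.8%, against 32.2%), AFOS 22 (38.6%, against 34.6%), SOX9+AFOS 15 (26.3%, against 31.2%) and SOX9+ARID1a 21 (36.8%, against 28.8%). The WT-SOX9 arm thus opened fewer regions at these loci than the series share, and fewer than any other arm.

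Among the regions shared by noDOX and an arm, the median log2 ratio was -0.23 with WT-SOX9 (79 regions, -0.13 over the series) and 0.25 with SOX9+AFOS (77 regions, 0.00 over the series). With WT-SOX9, 3 of the 79 rose at least 2-fold (3.8%, against 6.04%) and 19 fell (24.1%, against 19.6%). With SOX9+AFOS, 17 of 77 rose (22.1%, against 14%) and 13 fell (16.9%, against 17.4%). SOX9+AFOS held the highest score at 28 of the 67 regions with a peak in all 7 culture lists (41.8%, against 24.9% over the series). Its peak names, unlike those of noDOX and WT-SOX9, give fragments as input, and the part of this was not tested. By locus, the WT-SOX9 medians ran from -0.92 at Pparg (3 regions), -0.81 at Nr3c1 (10) and -0.73 at Rxra (14) to 0.15 at Ppard (14) and 0.38 at Rara (7).

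**Figure D5:**
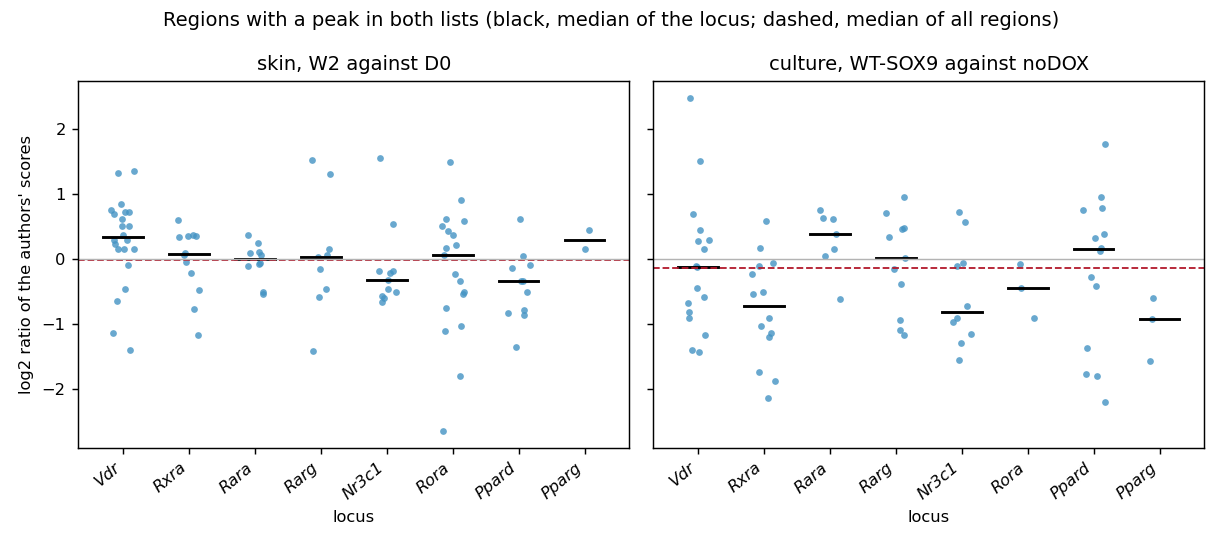
Log2 ratio of the authors' scores (y axis) for regions with a peak in both lists, by locus (x axis), for W2 against D0 in skin (left) and WT-SOX9 against noDOX in culture (right); points are regions, black bars medians of a locus, dashed lines medians of all regions of the series. Skin medians lie between -0.33 (Ppard) and 0.33 (Vdr), and culture medians between -0.92 (Pparg) and 0.38 (Rara).

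Skin and culture were compared region by region, counting a region as up when gained, opened or at least 2-fold higher, and as down when lost, closed or at least 2-fold lower. Of the 218 regions, 8 changed in both systems, and in 6 of the 8 the W2 and WT-SOX9 changes had the same direction (75%, against 66.6% of 6319 such regions over the series), up at chr15:97858202-97859147 (Vdr) and chr17:28251575-28252228 (Ppard) and down at chr15:97823750-97824494 (in Hdac7, within the Vdr window), chr11:98904902-98905476 (Rara), chr15:102243434-102243813 and chr15:102282339-102283112 (both Rarg). In 2 regions, both at Ppard, the directions were opposite.

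The other genes of the pathway gave a comparison of the same kind. Over the windows of 40 other nuclear receptor genes, with 535 regions, 24 of 255 D0 regions were lost (9.41%, against 9.9% over the series) and 33 of 409 skin regions gained (8.07%, against 8.02%), while 46 of the D0 regions (18%, against 19.6%) had no peak at W2. Among these receptor genes the largest numbers of D0 regions without a W2 peak were 6 of 14 at Esr1, the estrogen receptor α gene, and 5 of 20 at Thrb, the thyroid hormone receptor β gene. At Esr1 78.3% and at Thrb 73.3% of skin regions had no culture peak, against 39.4% over the series. At Rarb, the third retinoic acid receptor, no D0 region was lost (0 of 6) and 5 of 20 skin regions were gained. Among 10 coregulator genes, 8 of 107 D0 regions were lost (7.48%) and 17 of 168 skin regions gained (10.1%), with 5 of 12 at Ncoa1. Among 20 genes of ligand metabolism and targets, 10 of 169 were lost (5.92%) and 19 of 281 gained (6.76%), with 3 of 9 D0 regions lost at Aldh1a1, a retinoic acid synthesis gene.

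The central 200 bp of all regions were searched on both strands. The nuclear receptor half-site was AGGTCA or GGGTCA, and direct repeats of it were spaced by 1 to 5 bases. The inverted repeat, the form that steroid receptors bind, was ACANNNTGT. The AP1 sequence was TGANTCA. For SOX proteins ACAATAG was used, or its variant ACAATGG. The GATA sequence was AGATAA. The RUNX sequence was TGTGGT. The half-site is contained in the direct repeat. At the 8 loci 40 of 218 regions held a half-site (18.3%, 18.8% over the series), 49 AP1 (22.5%, 24.4%), 37 RUNX (17%, 16.5%), 18 the inverted repeat (8.26%, 7.23%), 15 GATA (6.88%, 10.7%) and 11 SOX (5.05%, 6.07%). No direct repeat was found in these windows (0.138% over the series). Of the 8 regions opened by WT-SOX9, 2 held a SOX sequence, compared with 16.6% of the regions it opened over the series, and of the 8 gained in skin 4 held a RUNX sequence, against 18.9%. Apart from GATA, the shares at the 8 loci lay within 2 percentage points of those of the series, and a match says only that these letters are present.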

How the data were processed

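ATAC-seq was performed on 24 samples, and 1 peak list per group of 2 replicates was used. The authors aligned reads to GRCm38 (mm10), merged replicates and called peaks with MACS2; the submitters' notes also name Bowtie2, Picard, SAMtools and deepTools. The deposited score is the authors' normalised peak score, kept from 3 upwards. List totals of 925672 to 996710 were nearly alike, and the formula of the score is not given in the sources used here. The deposited skin lists also hold fold enrichment (a ratio) and the −log10 q-value, of which the latter served for 1 alternative. Read depth is unknown.

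Peaks of the 12 lists were merged into regions at an overlap of 1 bp or more (Python 3.11.15, pandas 2.3.3). A region belonged to a locus if it touched the gene body of GENCODE vM21 with 50 kb on each side, and to a promoter within 1 kb of an annotated start. Presence means a peak in the list, and a score change means 2-fold. With 1 list per group no test was run. Shares are given with those of all regions, and intervals (95%, Wilson) cover counting error only. Sequences are from the RefSeq GRCm38.p6 genome and were read with pysam 0.24.0. The counting was tested on simulated data.

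Regions were named by rule. At each locus these were the highest-scoring promoter and other gene body region, and the strongest lost, gained, closed and opened region. Over all loci they were the 3 largest score ratios up and down, W2 to D0 and WT-SOX9 to noDOX. Further regions named at Rora, Vdr, Rxra, Ppard, Pparg and Nr3c1, and those sharing a direction in skin and culture, were chosen after their values were seen. The members and gene lists were chosen with earlier results of these data known.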

Additional observations from a re-analysis of the deposited data

Results flagged for a closer look

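In 2 regions of Ppard the skin and culture changes ran in opposite directions, and in neither case was the difference tested. The region chr17:28269397-28270641, in an intron, had no peak at D0 and W1 and peaks from W2 on, while its WT-SOX9 score was lower than that of noDOX by a log2 ratio of -2.19. The region chr17:28192662-28193233, in an intron of Zfp523 within the Ppard window, also had no peak at D0 and W1 and scores of 3.97, 6.07 and 8.92 at W2, W6 and W12. Its score without DOX was 4.71, and it had no peak with WT-SOX9, SOX9+AFOS or SOX9+ARID1a.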

How the results depend on the processing

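No paired analysis was possible because each group was 1 merged list. For the same reason no replicate could be left out. Of 177 alternative values, 115 stayed within their limits, 62 moved and 0 reversed. A reversal could be called only for a median score ratio, not for a count, so the 0 says nothing about the counts. Shares over the series at the same setting were computed only for closing with at least 50% of a region covered. The other counts below describe these loci alone and cannot be set against the series. With scores of at least 5, 5 regions were gained, 5 opened by WT-SOX9 and 9 by SOX9+AFOS. With every list cut to 49458 peaks, 5 were gained and 13 opened by AFOS. With a common −log10 q minimum of 14.5, 52 skin regions had a peak in all lists, 27 were lost and 2 gained. That minimum is the lowest value of the D0 list, against 4.21 at W2 and 5.74 at W6. It removed no D0 peak and trimmed the other skin lists, which favours losses over gains by construction. With at least 50% of a region covered, 47 were in all skin lists, 2 were gained and 20 (WT-SOX9), 12 (dHMG-SOX9), 10 (AFOS), 24 (SOX9+AFOS) and 28 (SOX9+ARID1a) of 78 closed.

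With 10 kb flanks, 50 were in all skin lists and 5 gained. Closed regions then numbered 3 with WT-SOX9, 3 with dHMG-SOX9, 4 with dTA-SOX9, 1 with AFOS, 4 with SOX9+AFOS and 3 with SOX9+ARID1a, and opened ones 3 with WT-SOX9, 6 with dHMG-SOX9, 13 with AFOS and 11 with SOX9+ARID1a. With the gene body alone, 106 regions had a skin peak, 41 in all lists, and 5 were gained. Closed ones numbered 2 (WT-SOX9), 3 (dHMG-SOX9), 3 (dTA-SOX9), 1 (AFOS), 3 (SOX9+AFOS) and 3 (SOX9+ARID1a), and opened ones 3 (WT-SOX9), 5 (dHMG-SOX9), 13 (dTA-SOX9), 11 (AFOS) and 10 (SOX9+ARID1a). The median log2 ratio of W2 to D0 was then 0.17. With regions given to the nearest start, 48 were in all skin lists and 5 gained. Closed ones numbered 5 (WT-SOX9), 3 (dTA-SOX9), 7 (SOX9+AFOS) and 5 (SOX9+ARID1a), and opened ones 4 (WT-SOX9), 7 (dHMG-SOX9), 13 (AFOS) and 11 (SOX9+ARID1a). Without the W12 list, an alternative chosen after seeing the data, 22 regions were lost. The narrower windows hold fewer regions by construction. Also by construction, the common q minimum trimmed only the lists after D0, and the rule without W12 is looser for every region. For the other settings the cause was not tested. At Rora, 14 of 38 D0 regions were lost and 30 of 38 had no peak at W2 with the common q minimum. That minimum trimmed the W2 list but not D0, and no share over the series was computed. These counts therefore cannot be read as particular to Rora. With scores of at least 5, 4 of 21 were lost and 10 of 21 had no peak at W2. Without the W12 list 18 of 38 were lost, by a rule that is looser for every region. At Ppard, 2 of 16 skin regions were gained with scores of at least 5, 2 of 15 with lists cut to one size, 0 of 16 with the common q minimum and 1 of 19 with 50% covered.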
